A study of Mus musculus with 6 samples.

Results

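The genes that move zinc and iron into, through and out of the cell were examined in cultured mouse Sertoli cells with and without *Pa1*. They were taken from the table of reads per gene as the protein-coding genes of the SLC30 zinc exporters, the SLC39 zinc importers, the SLC11 divalent metal transporters, the STEAP metalloreductases and the metallothioneins, together with *Slc40a1*, *Fth1*, *Ftl1*, *Tfrc*, *Aco1*, *Ireb2* and *Heph*. This rule, which used names and no measured values, found 38 of 28262 genes, 25 of them zinc genes and 13 iron genes.

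The study removed *Pa1*, which encodes a subunit of the MLL3/4 histone methyltransferase complex, from Sertoli cells, the somatic cells that line the seminiferous tubule and nurse the germ cells, and measured RNA by sequencing. Both groups held 3 libraries of untreated Sertoli cells from 20-day-old C57BL/6 mice. The Pa1F/F cells, which served as the control, carried floxed *Pa1* alleles. In the Amh-pa1-/- cells the same alleles were deleted by a Cre recombinase under the *Amh* promoter, which is active in Sertoli cells. After isolation the cells were kept at 34 °C in 5% CO2 in medium with transferrin, insulin and EGF, and unattached germ cells were washed off. Nothing in the sources used here says whether replicates came from separate mice or pools, so the p-values measure only the spread between these libraries. *Pa1* itself was not analysed here, and the genotype rests on the label.

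Zinc is a structural or catalytic partner of very many proteins and is toxic when free. SLC39 (ZIP) proteins raise cytosolic zinc from outside the cell or from vesicles, SLC30 (ZnT) proteins lower it by export or by filling vesicles, and metallothioneins bind the excess, with the zinc-sensing transcription factor MTF1 acting on metal response elements (MREs) of the *Mt1* and *Slc30a1* promoters. Iron reaches the inside of the seminiferous tubule through the Sertoli cell: transferrin iron enters by the transferrin receptor, is reduced by STEAP proteins and leaves the endosome by SLC11A2, is stored in ferritin, and leaves the cell by ferroportin with the help of a ferroxidase. The iron regulatory proteins ACO1 and IREB2 bind stem-loops called iron-responsive elements (IREs), which block translation when they lie in the 5′ UTR and protect the RNA from decay when they lie in the 3′ UTR.

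The IREs are shown because they govern the output of a gene after transcription, which these RNA levels do not show in full. Of 38 members, 4 held a stem-loop of this form in a UTR (a C, 5 bases, the loop CAGTGN with N other than G, and 5 bases that pair with the first 5, G to T pairs allowed), against 160 of 21594 genes with a coding transcript (0.741%). Stem-loops of any other form, such as one with a further unpaired base, were not searched for, so other members may hold IREs. Capitals mark the unpaired C and the loop. *Fth1*, *Ftl1* and *Slc40a1* each had 1 in the 5′ UTR, and *Tfrc* had 4 in the 3′ UTR.
Fth1: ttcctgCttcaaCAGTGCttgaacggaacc
Ftl1: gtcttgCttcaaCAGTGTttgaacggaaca
Slc40a1: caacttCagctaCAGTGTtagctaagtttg
Tfrc, base 3320: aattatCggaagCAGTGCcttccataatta
Tfrc, base 3699: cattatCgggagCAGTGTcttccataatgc
Tfrc, base 3764: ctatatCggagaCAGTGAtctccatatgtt
Tfrc, base 3811: aattatCgggaaCAGTGTttcccataattt
The stretches of *Fth1*, *Ftl1* and *Slc40a1* start at base 87, 78 and 166 of their transcripts, and those of *Tfrc* at the bases given. The sequences come from the GENCODE transcripts of GRCm39.

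Libraries held between 13203757 and 16231443 reads assigned to genes. The Sertoli markers *Sox9* and *Wt1* were high in every library and did not pass the test between the groups, with 3172 to 4983 normalized counts for *Sox9*. Here a normalized count is a count scaled to a common library size. *Cldn11*, of the Sertoli cell tight junction, had a log2 fold change of -0.36 (edgeR adjusted p = 0.0632). Without knockout replicate 3 both *Wt1*, at 0.26 (adjusted p = 0.0018), and *Cldn11*, at -0.52 (adjusted p = 0.00023), passed. Of 15 tested Sertoli markers 6 fell and 1 rose. Those that fell were *Sox8* (log2 fold change -1.85), *Gata4* (-0.88), *Clu* (-0.69), *Inhbb*, *Nr5a1* and *Aard*, and the one that rose was *Dmrt1*. The Sertoli markers summed to 251405 to 255320 normalized counts in the control and 154203 to 195444 in the knockout libraries, most of them from *Clu*. Markers of other testis cells also moved with genotype. Whether their reads came from those cells was not tested. Of 14 tested macrophage markers 11 fell, of 4 tested Leydig cell markers 3 fell (the androgen enzyme gene *Cyp17a1* had at most 3 counts per library), of 4 tested germ cell markers 2 fell, among them *Ddx4* (log2 fold change -1.64, with the call lost in 8 of 15 alternatives), of 4 tested endothelial markers 2 fell and 1 rose, and 4 of 6 tested mesothelial markers rose, among them *Upk3b* (4.98). Of 6 tested peritubular myoid markers 2 rose. The summed myoid level was 3298 to 4206 normalized counts in control and 12274 to 18735 in knockout libraries. It is carried by *Acta2*, and without that gene it was 761 to 1077 in the control libraries and 476, 388 and 3352 in knockout replicates 1, 2 and 3. The Leydig sum was 12327 to 13727 and 2607 to 4902, mostly from *Star* and *Cyp11a1*. The Leydig marker *Insl3* had at most 2 counts per library. The endothelial sum was 1722 to 1807 and 948 to 1495, mostly from *Cdh5*. The mesothelial sum was 105 to 178 and 457 to 588. The germ cell sum, 2842 to 3237 and 1568 to 2949, is almost wholly *Uchl1*, which did not pass the test, and was 66.8 to 91.2 and 27.3 to 111 without it. A pair of libraries stood apart from the others of their group. In control replicate 2, 13.3% of genes lay more than 0.5 on the log2 scale from the other control libraries, among them *Steap4*, *Slc11a1* and *Mt3*. In knockout replicate 3, 24.1% of genes did so from the other knockout libraries, among them *Steap2*, *Tfrc*, *Steap3*, *Slc30a2*, *Mt1*, *Mt3* and *Ftl1*. The smooth muscle markers *Cnn1*, *Myh11* and *Des* had 421, 1605 and 485 normalized counts in that library, against 24.8 to 34.2, 164 to 216 and 43.9 to 46.2 in the other knockout libraries. The part of these differences in the results below was not tested, except where a value without the library is given.

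Of the 38 members, 31 had enough reads to be tested. At an adjusted p under 0.05 in edgeR's quasi-likelihood test, 10 (32.3%) fell in the Amh-pa1-/- cells and 7 (22.6%) rose, where 17.1% of the 14919 genes tested fell and 18.2% rose. With a fold change of at least 2 as well, 4 (12.9%) fell (*Steap4*, *Slc11a1*, *Slc30a1* and *Slc39a14*) and 0 rose, against 6.56% and 5.44% of all tested genes. The groups did not overlap for 19 of the 31 tested members (61.3%), against 52.4% of all tested genes. The share that fell was thus above that of all tested genes and the share that rose near it, which was not tested, and the median log2 fold change was -0.04 over the members and 0.00 over all tested genes. The iron and zinc genes differed in their counts: 7 of the 13 iron genes fell and 1 rose, with a median of -0.65, and 3 of the 18 tested zinc genes fell and 6 rose, with a median of 0.06. These iron and zinc counts were not tested against each other or against other lists. With control replicate 2 and knockout replicate 3 both left out, 11 members fell and 9 rose, where 27.3% and 28.0% of all genes tested without them did.

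**Figure D1:**
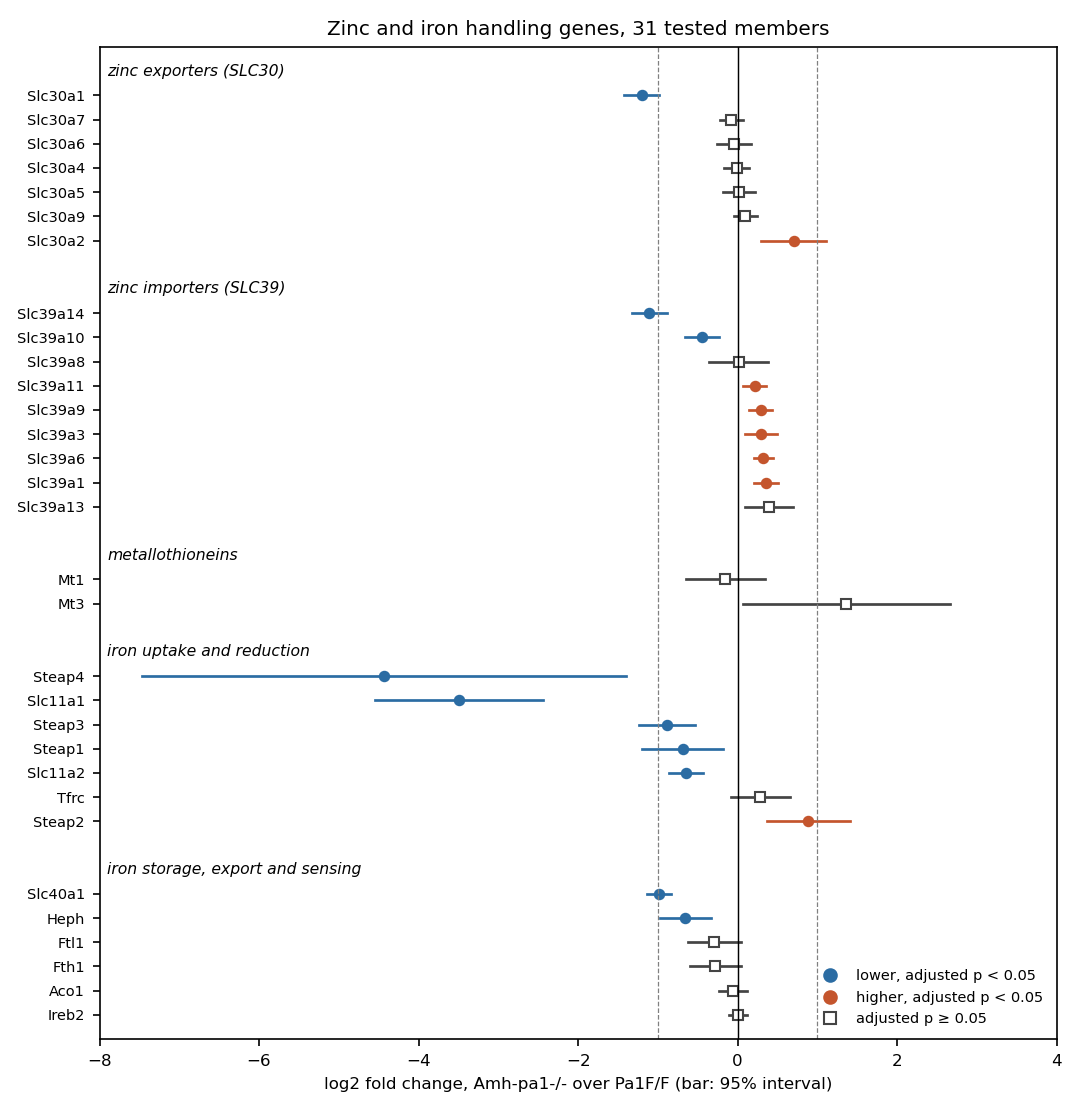
Log2 fold change of each of the 31 tested members in Amh-pa1-/- over Pa1F/F Sertoli cells (x axis; bar, 95% interval), grouped by role, with dashed lines at a fold change of 2. Filled points passed an adjusted p of 0.05. Of the 7 genes of iron uptake and reduction, 5 passed on the left and *Steap2* passed on the right, and *Slc39a14* lies at -1.11 among the zinc importers, 5 of which passed with small rises.

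The clearest change among the iron genes was in the exporter. *Slc40a1* (ENSMUSG00000025993, chr1:45908068-45926523 of GRCm38) encodes ferroportin, the iron exporter of mammalian cells. It had 3064, 2948 and 3117 normalized counts in the control libraries and 1573, 1608 and 1426 in the knockout libraries. All knockout libraries lay below all control libraries, with little spread in either group. The means were 3043 ± 86.3 and 1535 ± 96.4 (SD, n = 3), a 1.98-fold fall (log2 fold change -0.99, SE 0.06, adjusted p = 0.000154 in edgeR's test). The value stayed between -1.01 and -0.93 under every alternative run. In bulk RNA, fewer cells of a type and less RNA per cell cannot be told apart.

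Hephaestin, the membrane ferroxidase that oxidizes iron as ferroportin releases it, also fell. *Heph* had 449, 587 and 499 normalized counts in the control and 292, 317 and 367 in the knockout libraries. The groups did not overlap, and the fall was 1.57-fold (log2 fold change -0.65, SE 0.13, edgeR adjusted p = 0.00999).

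Ferritin, which stores iron in a shell of heavy and light chains, did not pass the test. *Fth1*, the heavy chain, had 7793, 10985 and 8331 normalized counts in the control and 7797, 7650.4 and 6901 in the knockout libraries, and *Ftl1*, the light chain, had 1132, 1060.2 and 1168 against 1028, 999 and 714. The groups overlapped for *Fth1* and not for *Ftl1*. The log2 fold changes were -0.28 (95% interval -0.60 to 0.04, edgeR adjusted p = 0.153) and -0.29 (-0.62 to 0.04, adjusted p = 0.145), so falls of up to about 0.6 on the log2 scale lie within both intervals. With single libraries left out *Fth1* ranged from -0.37 to -0.115 and *Ftl1* from -0.383 to -0.142, and neither passed. *Ftl1* passed only with control replicate 2 and knockout replicate 3 both left out (edgeR adjusted p = 0.00718). Per kilobase of transcript *Fth1* was the most abundant member, at 9727 normalized counts per kb in control cells against 1156 for *Ftl1*. The ratio of the chains per length was 7.18, 10.8 and 7.44 in the control and 7.91, 7.99 and 10.1 in the knockout libraries, with its highest values in the libraries that stood apart. Both genes have processed copies elsewhere in the genome, so reads that match several places may be missing from their counts. Whether this affected the ratio or the ranking was not tested.

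The iron regulatory proteins did not pass the test, and their intervals were narrow. *Aco1*, the cytosolic aconitase that binds IREs when it lacks its iron-sulphur cluster, had a mean of 1068 ± 53.8 normalized counts in control and 1025 ± 68.4 in knockout cells (SD, n = 3), with a log2 fold change of -0.06 (95% interval -0.23 to 0.11). *Ireb2*, which is degraded when iron is plentiful, had 2629 ± 76.0 and 2641 ± 55.9 (SD, n = 3), with a log2 fold change of 0.01 (-0.11 to 0.12). Of the 4 members with a stem-loop of the form searched, *Slc40a1* passed the test and the others did not. Members with an IRE of another form are not covered by this count. Those with a 5′ UTR element had log2 fold changes of -0.99 (*Slc40a1*), -0.28 (*Fth1*) and -0.29 (*Ftl1*).

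On the uptake side, *Slc11a2* and *Steap3*, which act on the same step of transferrin iron in the endosome, both fell. *Slc11a2* (ENSMUSG00000023030, chr15:100387898-100425072) encodes the divalent metal transporter DMT1, and had 1917, 2292 and 1887 normalized counts in the control and 1353, 1332 and 1211 in the knockout libraries. *Steap3*, the endosomal ferrireductase (chr1:120190757-120272705), had 970.5, 876 and 1002 against 575, 571 and 401. For both genes every knockout library lay below every control library. The falls were 1.56-fold for *Slc11a2* (log2 fold change -0.65, SE 0.09, edgeR adjusted p = 0.00254) and 1.84-fold for *Steap3* (-0.88, SE 0.15, adjusted p = 0.00477).

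The transferrin receptor gene did not follow them. *Tfrc* had 804, 669 and 815 normalized counts in the control and 1047, 1017 and 724 in the knockout libraries. Knockout replicate 3 lay within the control range and the other two above it. The log2 fold change was 0.29 (95% interval -0.08 to 0.65, edgeR adjusted p = 0.195), and without knockout replicate 3 it was 0.44 with an adjusted p of 0.0095.

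*Steap2*, a metalloreductase of iron and copper, was the only one of the 13 iron genes chosen by the rule that rose. It had 1335, 1336 and 1374 normalized counts in the control and 2961, 2897 and 1606 in the knockout libraries. The groups did not overlap, but knockout replicate 3 lay far nearer to the controls than the other two did. The rise was 1.85-fold (log2 fold change 0.88, SE 0.22, edgeR adjusted p = 0.0208). It was 1.12 on the log2 scale without knockout replicate 3, and the call was lost, with an adjusted p of up to 0.0708, when any other single library was left out. *Steap1*, a family member on the same chromosome, had 116, 165 and 120 normalized counts against 94.7, 64.2 and 89.2, a log2 fold change of -0.69 (SE 0.21, edgeR adjusted p = 0.0455), and its call was lost in 8 of 16 alternatives, leaving out any one of the control libraries among them.

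**Figure D2:**
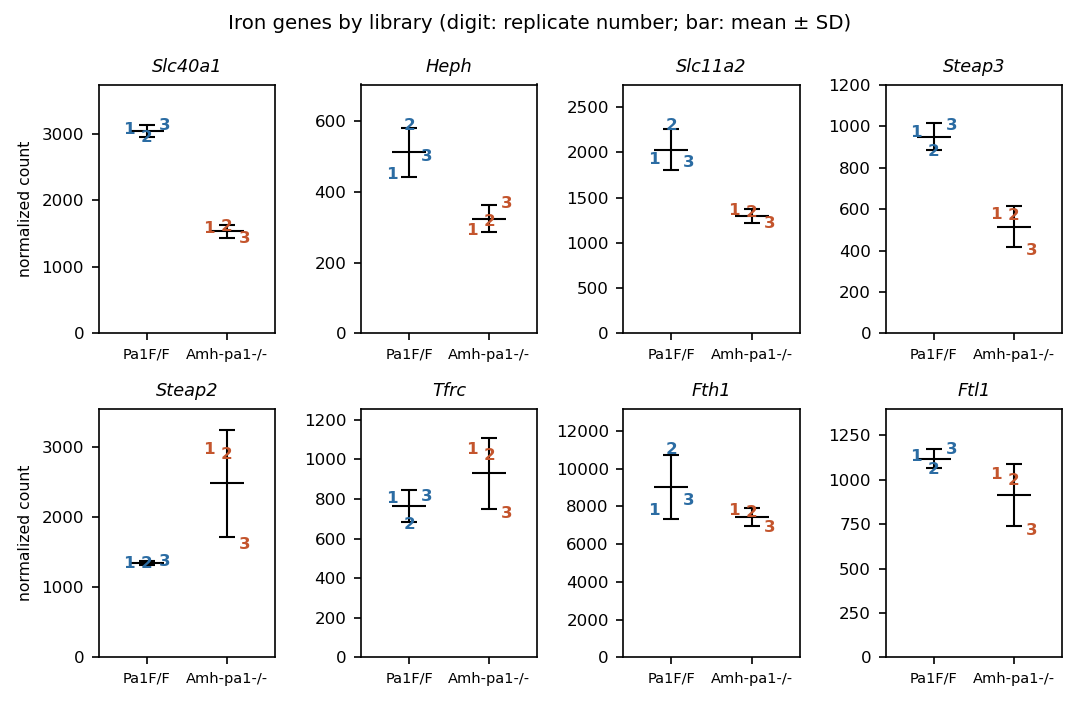
Normalized counts of 8 iron genes (y axes, linear from 0) in each Pa1F/F and Amh-pa1-/- library, with digits for the replicate number and bars for mean ± SD. *Slc40a1* drops from about 3043 to 1535 with no overlap, while for *Steap2*, *Tfrc* and *Ftl1* knockout replicate 3 sits apart from the other knockout libraries.

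The iron genes with the largest fold changes were expressed at low levels. *Slc11a1* (NRAMP1) pumps divalent metals out of the phagosome and is known for its expression in macrophages. It had 40.8, 84.2 and 40.9 normalized counts in the control and 5.86, 3.38 and 5.01 in the knockout libraries. The groups did not overlap (log2 fold change -3.49, SE 0.44, edgeR adjusted p = 0.00178). The summed reads were 11.5-fold higher in control cells (95% exact interval 6.67 to 21.5), and 8.49-fold (4.79 to 16.2) without control replicate 2. Both exact intervals cover counting error only and not the spread between libraries. The fall passed in all 15 alternatives that could be run.

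Macrophage markers fell beside it. *Adgre1* (F4/80) had 23.6, 62.0 and 14.7 normalized counts in the control and at most 4.51 in the knockout libraries (log2 fold change -3.38), *Csf1r* fell by 2.49 and *Cd68* by 1.65 on the log2 scale. All 3 had no overlap between the groups. All 18 listed markers summed to 3840 to 6055 in control and 4188 to 6168 in knockout cells. That sum is carried by *Mpeg1* and *Mrc1*, which did not pass the test. Without them it was 1283 to 1560.4 in the control and 188 to 243 in the knockout libraries, and no list member was at 0 in all libraries. Whether the *Slc11a1* reads came from macrophages was not tested.

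*Steap4*, a metalloreductase known to be induced by inflammatory signals, had 23.6, 314 and 26.2 normalized counts in the control and 6.83, 3.38 and 6.01 in the knockout libraries. Control replicate 2 was over 10 times the other controls, and the knockout libraries still lay below all 3. The log2 fold change was -4.44 (SE 1.28, 95% interval -7.47 to -1.40, edgeR adjusted p = 0.0347). The summed reads were 22.1-fold higher in control cells (95% exact interval 13.4 to 39.0) and 4.51-fold higher (2.53 to 8.47) without control replicate 2. These exact intervals leave out the spread between libraries, which the wider edgeR interval includes. The call was lost in 7 of 14 alternatives, limma-voom and leaving out any one of the knockout libraries among them, and DESeq2 gave it no adjusted p. In the same control library the acute-phase genes *Hp*, with 379 normalized counts, *Lcn2*, with 163, and *Cp*, with 3521, were also higher than in the other controls, which had 10.9 and 21.0, 53.5 and 30.4, and 1499.7 and 1530.2. The part of that library in the *Steap4* value is given by the ratio without it.

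**Figure D3:**
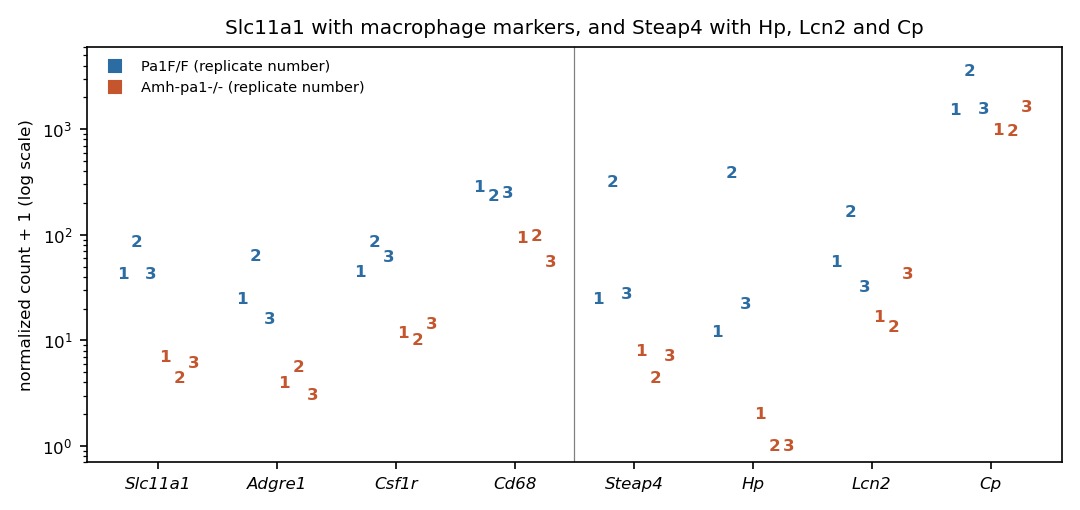
Normalized counts plus 1 (y axis, log scale) in each library, with digits for the replicate number. On the left *Slc11a1* is set beside the macrophage markers *Adgre1*, *Csf1r* and *Cd68*, all lower in every Amh-pa1-/- library. On the right *Steap4*, *Hp*, *Lcn2* and *Cp* share their highest value in control replicate 2, where *Steap4* had 314 against 23.6 and 26.2 in the other controls.

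Among the zinc genes the main change was in *Slc30a1* (ENSMUSG00000037434, chr1:191906767-191913247), which encodes ZnT1, the zinc exporter of the plasma membrane. It had 1722, 2085 and 1678 normalized counts in the control and 822, 783 and 781 in the knockout libraries. No library of one group came near the other group. The means were 1828 ± 223 and 795 ± 23.2 (SD, n = 3), a 2.30-fold fall (log2 fold change -1.20, SE 0.09, edgeR adjusted p = 0.000305). It kept its adjusted p under 0.05 in 15 of 16 alternatives. The exception was the test against a fold change of 2 itself, with an adjusted p of 0.161. An antisense gene opposite to it, 1700034H15Rik, had 157 summed counts in the control and 51 in the knockout libraries, and reads of such pairs cannot be told apart without strand.

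*Slc30a2* (ZnT2), which loads zinc into vesicles, moved the other way. It had 2693, 2631 and 2779 normalized counts in the control and 3686, 3749 and 5734 in the knockout libraries. The groups did not overlap, and knockout replicate 3 was far above the other two. The rise was 1.63-fold (log2 fold change 0.70, SE 0.17, edgeR adjusted p = 0.0195). It was 0.46 without knockout replicate 3, still past the test, and the call was lost without any one of the control libraries, with an adjusted p of up to 0.0668. In the annotation of GRCm39, 40.2% of its exon bases are shared with *Extl1* on the opposite strand, while in the counted GRCm38 table the 2 genes do not overlap.

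The other tested exporters lay close to 0. *Slc30a4*, a vesicular transporter, had a log2 fold change of -0.01 (95% interval -0.17 to 0.15). *Slc30a5*, *Slc30a6* and *Slc30a7*, which supply zinc to the early secretory pathway, had 0.02 (-0.18 to 0.22), -0.04 (-0.25 to 0.17) and -0.08 (-0.23 to 0.07), and *Slc30a9*, a mitochondrial transporter, had 0.10 (-0.05 to 0.24). A change of more than about 0.25 in either direction lies outside each of these intervals. *Slc30a8*, the transporter of insulin granules, and *Slc30a10*, which exports manganese, had too few reads to be tested, with 0, 0 and 1 against 5, 2 and 3 counts, and 3, 0 and 0 against 0 in every knockout library.

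The make-up of the exporter family per kilobase of transcript therefore differed between the genotypes, as a description of the same counts. *Slc30a1* held 14.8% ± 1.68 of the family's summed level in control and 5.78% ± 0.870 in knockout cells (SD, n = 3), and *Slc30a2* held 33.7% ± 1.14 and 47.8% ± 5.41. The summed level of the family was 2321 to 2358 normalized counts per kb in the control and 2446, 2390 and 3091 in the knockout libraries, so the highest sum was that of knockout replicate 3.

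*Slc39a14* (ENSMUSG00000022094, chr14:70303469-70351425) was the importer with the largest change, and it joins both metals: ZIP14 carries zinc, manganese and iron that is not bound to transferrin. It had 1304, 1344 and 1138 normalized counts in the control and 637, 555 and 560.1 in the knockout libraries. The groups were well apart. The means were 1262 ± 109 and 584 ± 46.1 (SD, n = 3), a 2.16-fold fall (log2 fold change -1.11, SE 0.09, edgeR adjusted p = 0.000398), and leaving out single libraries moved the log2 value only between -1.18 and -1.06. *Slc39a10*, a plasma membrane importer, also fell, from 1130.0, 1287 and 1121 to 805, 838 and 956 normalized counts (log2 fold change -0.44, SE 0.09, edgeR adjusted p = 0.0103), with no overlap.

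The most abundant importers rose slightly. *Slc39a6*, a plasma membrane importer, had 5169, 5035 and 5223 normalized counts in the control and 6426, 6372 and 6482 in the knockout libraries, a log2 fold change of 0.32 (SE 0.05, edgeR adjusted p = 0.00369). *Slc39a1*, the broadly expressed ZIP1, had 2558, 2859 and 2515 against 3299, 3360.5 and 3461 (0.35, SE 0.06, adjusted p = 0.00664). Neither gene had overlapping groups, although the rise was under 1.3-fold in both. *Slc39a9*, of the secretory pathway, rose by 0.29 (SE 0.06, edgeR adjusted p = 0.012), with 996 to 1103 normalized counts in the control and 1248 to 1315 in the knockout libraries. The *Slc39a9* call held in 13 of 16 alternatives and was lost without control replicate 3 (edgeR adjusted p = 0.0542). *Slc39a3*, with 369 to 420 and 465 to 487, and *Slc39a11*, with 685 to 708 and 791 to 836, had log2 fold changes of 0.29 and 0.22 with adjusted p of 0.0328 and 0.0315 in edgeR's test. Their calls were lost in at least 8 of 16 alternatives. In the counted table *Slc39a9* overlaps *Erh* on the opposite strand, with 3532 summed counts in the control and 4144 in the knockout libraries, and *Slc39a11* overlaps *Cog1*, with 2509 and 1884. Overlaps with a listed gene, on the same or the opposite strand, exist for 13 of the 38 members, and the strand setting of the counting is not stated.

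*Slc39a13*, which releases vesicular zinc, had 669, 591 and 690.1 normalized counts in the control and 925, 926 and 703 in the knockout libraries. The groups did not overlap, but knockout replicate 3 lay next to the controls. The log2 fold change was 0.39 (95% interval 0.09 to 0.69, edgeR adjusted p = 0.0502). It was 0.51 without knockout replicate 3, with an adjusted p of 0.00256. It overlaps *Psmc3* on the opposite strand, which had 6761 and 7209 summed counts. *Slc39a8* (ZIP8), the closest relative of *Slc39a14*, had 81.8 ± 2.69 and 82.5 ± 11.2 normalized counts (SD, n = 3), a log2 fold change of 0.01 with a wide interval (-0.36 to 0.38).

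The remaining importers had too few reads to be tested. *Slc39a2* had 3, 9 and 7 counts in the control and 4, 0 and 7 in the knockout libraries, and *Slc39a5* had 4, 8 and 8 against 5, 7 and 9. *Slc39a4*, the importer of the gut, had 0, 2 and 0 against 1, 0 and 3, and *Slc39a12* had 1, 1 and 3 against 1, 0 and 1. *Slc39a7*, which releases zinc from the endoplasmic reticulum, had 11, 9 and 4 against 1, 5 and 3. In the GRCm39 annotation 78.3% of the exon bases of *Slc39a7* are shared with a read-through gene on the same strand, and whether that lowered its count was not tested.

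**Figure D4:**
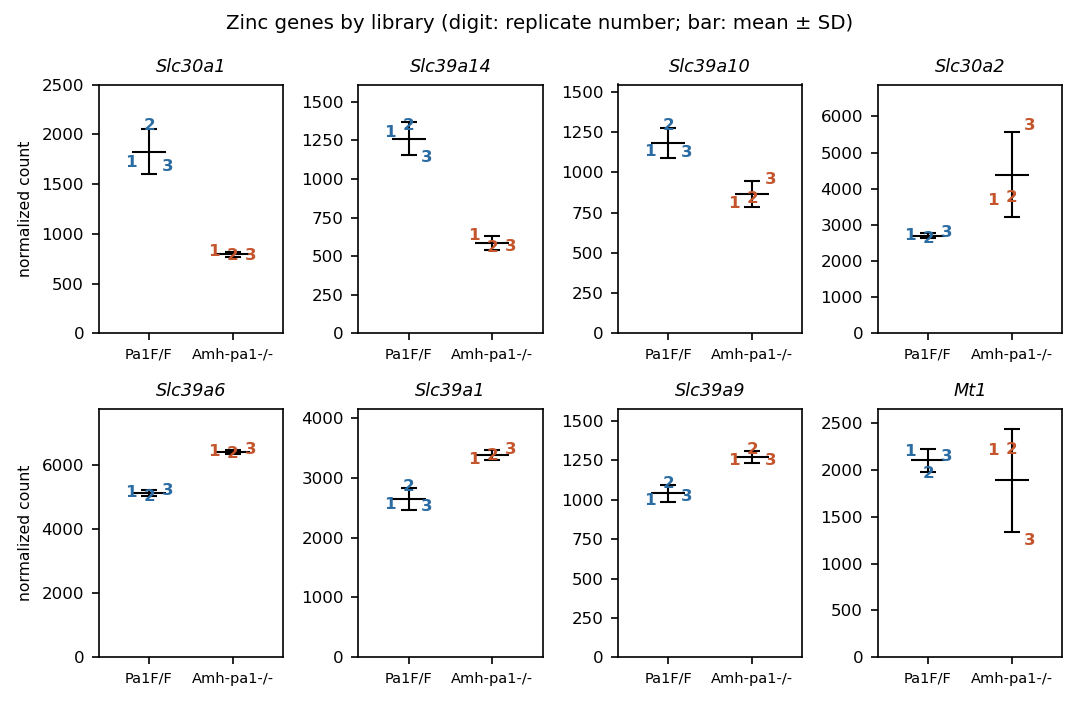
Normalized counts of 8 zinc genes (y axes, linear from 0) in each Pa1F/F and Amh-pa1-/- library, with digits for the replicate number and bars for mean ± SD. *Slc30a1* and *Slc39a14* drop to 795 and 584 on average, *Slc39a6*, *Slc39a1* and *Slc39a9* rise slightly without overlap, and in *Slc30a2* and *Mt1* knockout replicate 3 stands apart.

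Within the importer family *Slc39a1* and *Slc39a6* together carried most of the level per kilobase in both genotypes. *Slc39a1* held 33.5% ± 1.62 in control and 36.6% ± 0.868 in knockout cells, and *Slc39a6* held 31.1% ± 1.27 and 33.3% ± 0.383 (SD, n = 3). *Slc39a14* went from 7.28% ± 0.509 to 2.89% ± 0.237. The family sum was 3272 to 3417 normalized counts per kb in the control and 3879 to 3909 in the knockout libraries, so the 2 ranges did not overlap.

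**Figure D5:**
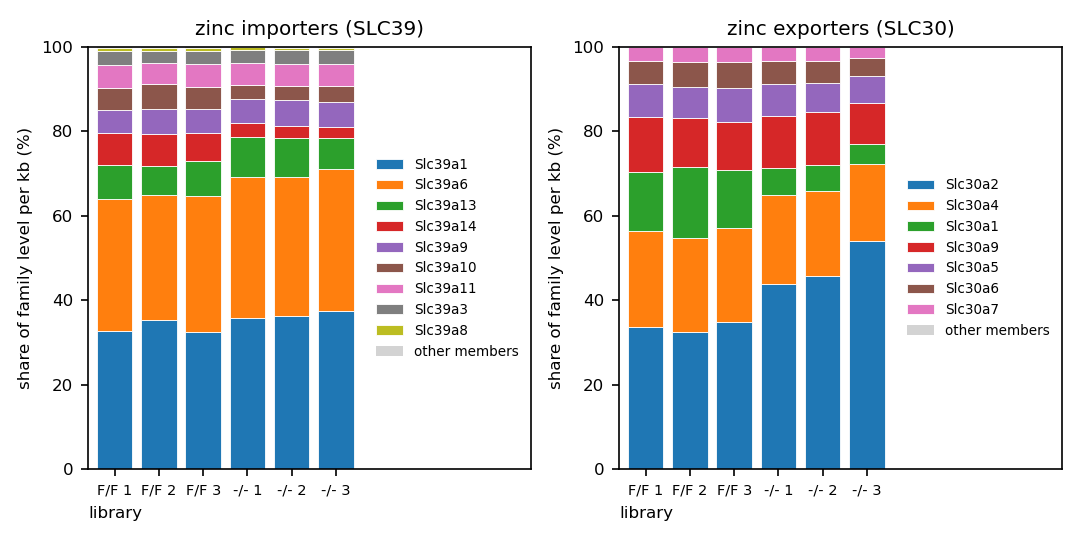
Share of each gene in the summed level per kilobase of the SLC39 importers (left) and SLC30 exporters (right), in percent, for each library. The *Slc39a14* band narrows from 7.28% to 2.89% and the *Slc30a1* band from 14.8% to 5.78%, while the *Slc30a2* band widens and is widest in knockout replicate 3.

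The 2 metallothioneins that the rule found, *Mt1* and *Mt3*, bind zinc and copper in the cytosol and did not pass the test. *Mt2* and *Mt4* were not among the members found. *Mt1* had 2197, 1965 and 2142 normalized counts in the control and 2200.2, 2210.3 and 1249 in the knockout libraries. Knockout replicate 3 was low, and the other two lay just above the controls. The log2 fold change was -0.16 (95% interval -0.65 to 0.34, edgeR adjusted p = 0.597), and 0.07 without knockout replicate 3. *Mt3*, known mainly from the brain, had 19.0, 9.68 and 15.7 normalized counts against 17.6, 29.3 and 68.1, a log2 fold change of 1.36 (0.06 to 2.66, adjusted p = 0.0952) with overlapping groups. Without knockout replicate 3 it was 0.64 (adjusted p = 0.229), and without knockout replicate 1 it was 1.72 (adjusted p = 0.0458).

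*Slc30a1* and *Mt1* are textbook targets of MTF1, and they are shown because one fell and the other did not pass the test. RefSeq promoters of GRCm38, from 250 bases before to 50 bases after the start, were found for 31 of the 38 members. The MRE core was searched as TGCACNC and as TGCGCNC on both strands. TGCACNC lay in a promoter of 9 of the 31 members and in 12.6% of 32851 promoters, TGCGCNC in 11 and 15.4%, and either core in 16 and 25.7%. Several members have more than one promoter, 42 in all, so the shares are not counted alike. The AP-1 site TGANTCA lay in 0 of the 31 and in 7.81% of promoters. A match is a description of the letters and not a bound site. The 250 bases before each start are given with the MRE core in capitals, at chr1:191906531-191906780 (plus strand) for *Slc30a1* and chr8:94178839-94179088 (plus strand) for *Mt1*.
Slc30a1: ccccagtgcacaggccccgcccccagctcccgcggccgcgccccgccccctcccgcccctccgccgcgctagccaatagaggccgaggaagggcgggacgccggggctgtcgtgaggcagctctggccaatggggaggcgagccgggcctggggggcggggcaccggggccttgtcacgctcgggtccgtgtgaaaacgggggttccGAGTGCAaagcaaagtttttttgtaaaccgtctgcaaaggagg
Mt1: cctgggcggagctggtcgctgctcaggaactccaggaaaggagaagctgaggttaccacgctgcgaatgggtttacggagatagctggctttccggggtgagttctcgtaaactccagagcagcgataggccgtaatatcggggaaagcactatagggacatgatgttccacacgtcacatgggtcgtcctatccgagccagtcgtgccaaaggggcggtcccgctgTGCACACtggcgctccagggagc
The *Slc30a1* core begins 43 bases before the start on the minus strand and the *Mt1* core 23 bases before it on the plus strand. In the 50 bases searched past the start, *Slc30a1* has 1 further core and *Mt1* has 2. Cores outside the searched window were not looked for. *Mtf1* itself had 479, 395 and 490 normalized counts in the control and 697, 659 and 586 in the knockout libraries, and rose (log2 fold change 0.51, SE 0.11, edgeR adjusted p = 0.0133).

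Other genes of the same metals were followed in 6 lists. Of the 66 listed genes that were tested 18 (27.3%) fell and 6 (9.09%) rose, against 17.1% and 18.2% of all tested genes, with a median log2 fold change of -0.11. In the list of iron uptake and plasma iron proteins 5 of 8 tested genes (62.5%) fell and 0 rose. *Scara5*, a receptor that takes up ferritin, had 2582, 2532 and 2477 normalized counts in the control and 303, 306 and 537 in the knockout libraries, with a log2 fold change of -2.73 (SE 0.22, edgeR adjusted p = 0.000377) and no overlap. *Tfr2*, a transferrin-binding iron sensor, fell by 2.12, *Cybrd1*, a ferric reductase, by 1.07, and *Lrp1*, whose product clears heme bound to hemopexin, by 0.74 on the log2 scale. *Hp*, which binds free haemoglobin, also passed the test, with 379 of its normalized counts in control replicate 2, but not when any one of the knockout libraries was left out. *Trf*, the transferrin gene, had 2 to 6 counts per library and was not tested.

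In the hormone and ferroxidase list of 4 tested genes, *Bmp6*, the signal that drives hepcidin in liver, fell by 1.28 and *Hephl1*, a hephaestin relative, rose by 1.50 on the log2 scale, a call lost in 4 of 16 alternatives, leaving out knockout replicate 1 or 2 among them. *Cp*, the soluble ferroxidase ceruloplasmin, had a log2 fold change of -0.89 (edgeR adjusted p = 0.115) with its highest count in control replicate 2. It was -0.36 without that library and -1.18, with an adjusted p of 0.0435, without knockout replicate 3. In the intracellular iron list 5 of 14 (35.7%) fell and 0 rose. *Hmox1*, which frees iron from heme, had 2423, 2349 and 2511 normalized counts in the control and 1341, 1383 and 1102 in the knockout libraries, a log2 fold change of -0.93 (SE 0.09, edgeR adjusted p = 0.000706) with no overlap.

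Of 24 genes of mitochondrial iron, iron-sulphur clusters and heme synthesis, 4 fell and 4 rose (16.7% each), near the 17.1% and 18.2% of all tested genes. *Alas2*, the erythroid enzyme of the first step of heme synthesis, rose by 2.43 on the log2 scale (edgeR adjusted p = 0.0259), with 632 normalized counts in knockout replicate 3 against 135 and 148 in the other knockout libraries and 50.3 to 67.1 in the control libraries. Without knockout replicate 3 its log2 fold change was 1.32 (adjusted p = 0.00122), and the call was lost in 7 of 16 alternatives, leaving out any one of the control libraries among them. Of 6 zinc regulators and zinc enzymes, *Mtf1* rose and *Car2*, a carbonic anhydrase, had a log2 fold change of -1.22 (edgeR adjusted p = 0.0396). The *Car2* call was lost in 9 of 16 alternatives, with -0.82 and an adjusted p of 0.115 without control replicate 1. Of 10 copper genes 2 fell and 0 rose.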

How the data were processed

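RNA was measured by sequencing in 6 libraries, grouped by the genotype in their labels. Per the study's methods, RNA was extracted with Trizol and libraries were made with a NEBNext Ultra kit, which does not mark strand. Reads were mapped by the authors with HISAT2 2.1.0 to GRCm38 and assigned to genes with HTSeq 0.6.0 (strand setting not stated), and the raw counts were deposited. The deposited table also holds the authors' own comparison, a mean signal, a fold ratio, its log2 value and p-values, and none of these was used.

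Genes were filtered with filterByExpr of edgeR 4.0.16 (minimum count 10, total 15), scaled by TMM and tested with the quasi-likelihood test in R 4.3.3, with p-values adjusted by Benjamini-Hochberg over 14919 genes. Differentially expressed means past an adjusted p of 0.05 with a log2 fold change at or beyond 1 in either direction, as in the study. Its methods name DEGseq, which was replaced by a test that uses the replicate spread. SE is the absolute log2 fold change over the square root of F. An exact permutation test of 3 against 3 cannot go below 0.1 and was not used for calls. For normalized counts, each count was divided by its effective library size and multiplied by the mean of these sizes. Levels per kb use the canonical transcript of the GRCm39 annotation matched by Ensembl ID. In the simulation of this comparison, with a log2 fold change of 2, 92.6% of 188 changed genes were recovered among 14636 tested, and 5.95% of calls were unchanged genes. Intervals of read ratios cover counting error only, since reads without molecular identifiers are not independent molecules.

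Every member is named. Of the 6 lists of other metal genes, differentially expressed genes, *Trf*, *Mtf1*, *Hmox1* and *Cp* are named. *Lrp1*, *Lcn2*, the Sertoli markers that moved, *Mpeg1*, *Mrc1*, *Acta2*, *Uchl1*, *Cnn1*, *Myh11* and *Des* were added after their values were seen. So were *Star*, *Cyp11a1*, *Insl3* and *Cdh5*. The members and lists were chosen with earlier results of these data known. Alternatives were DESeq2 1.42.0 size factors or Wald test, library size only, limma-voom 3.58.1, a test against the fold threshold, 2 other filters, the replicate block, close replicates summed, and each library left out. Leaving out control replicate 2 and knockout replicate 3 together was chosen after seeing the data.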

Additional observations from a re-analysis of the deposited data

How the results depend on the processing

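Over 16 alternatives, 406 of 493 values of members kept their direction and side of the threshold, 62 lost the call, 9 gained one and 16 changed sign. Differentially expressed members that fell numbered 1 in the test against a fold change of 2 (2.05% of all tested genes) and 2 with at least 10 counts in every library (5.01%), where *Steap4* and *Slc11a1* were not tested, against 4 (6.56%). With close replicates summed to 2 libraries per genotype, 5 members fell and 0 rose, against 10 and 7, and of all genes tested 4.22% and 4.43% did, against 17.1% and 18.2%. The falls lost there were those of *Heph*, *Steap3*, *Slc39a10*, *Steap1* and *Steap4*. With both libraries that stood apart left out, an alternative chosen after seeing the data, 1 member rose 2-fold or more (6.27% of all genes). Leaving out single libraries gave 3 to 5 falls and 0 to 1 rises of 2-fold or more. Of all tested genes 5.24% to 7.92% fell and 4.41% to 5.60% rose by that much. At the adjusted p alone there were 8 to 9 falls and 2 to 9 rises, where 11.1% to 21.2% of all tested genes fell and 11.5% to 21.9% rose. The lowest count of rises came without control replicate 3 (2, against 11.5% of all tested genes). The highest came without knockout replicate 3 (9, against 21.9%). The count was 4, 3, 5 and 4 without control replicates 1 and 2 and knockout replicates 1 and 2. With a replicate block 8 members fell and 5 rose at the adjusted p (12.6% and 12.8% of all tested genes), and 3 and 0 by 2-fold or more (5.64% and 4.80%). Samples with the same number did not deviate together (correlations 0.108, -0.164 and -0.179), so the numbers were not read as pairs.

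Sign changes of the log2 fold change were confined, among the named genes, to values near 0 that did not pass the test. *Slc39a8* was -0.0017 in limma-voom, -0.000999 with at least 10 counts in every library, -0.0247 with close replicates summed and -0.0699 to 0.11 with single libraries left out (below 0 without control replicate 3, at -0.0156, and without knockout replicate 2). *Slc30a4* was 0.0128 with no filter beyond 1 count, 0.036 with close replicates summed and -0.0718 to 0.0555 with single libraries left out. *Ireb2* was -0.00565 with at least 10 counts, -0.00154 with both libraries that stood apart left out and -0.016 to 0.0258 with single libraries left out. *Slc30a5* was -0.0765 without both and -0.0355 to 0.106 with single libraries left out, below 0 without either of them. *Mt1* was 0.0206 without both and -0.277 to 0.0718 with single libraries left out, and *Sox9* was -0.222 to 0.0602. Both were above 0 without knockout replicate 3. Apart from the differences the alternatives were built on, the cause was not tested. Depth limits what can be said of the 7 members with too few reads, and of *Slc11a1* and *Steap4* in knockout cells.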
